A study of Mus musculus with 2 samples.

Results

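The genes of the NRF2 pathway and of glutathione synthesis were examined in livers of HFD-fed mice that received AAV-*Wee1-AS* or the control virus AAV-GFP. The 10 genes were chosen by symbol, and the estimated read counts of their 20 transcripts were summed per gene. They are 10 of 45777 genes in the deposited table, and all 10 passed the count filter (10 or more counts in either library), as did 15857 genes in all. The labels give liver of C57BL/6 mice on a high-fat diet, with overexpression of GFP or of the antisense RNA *Wee1-AS*, so that both groups share strain, diet and viral infusion. In the study's HFD experiment with this virus, feeding began at 7 weeks of age and lasted 18 weeks, and the retro-orbital infusion took place in diet week 13, which left 5 weeks until the end. The vector that the study names AAV-*Wee1-AS* was of serotype AAV9 with a CMV promoter, which is not restricted to hepatocytes, and a further vector had a hepatocyte promoter; the labels of these libraries give no promoter. There was 1 library of poly-A RNA in each group, although the design speaks of 4 liver samples, and pooling of mice is not stated. No spread between mice could be estimated, so no test was possible and no p-value is given.

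NRF2, encoded by *Nfe2l2*, is a transcription factor that is held at a low level by KEAP1, an adaptor that presents it to a ubiquitin ligase. When electrophiles or oxidants modify KEAP1, NRF2 accumulates, pairs with a small MAF protein and binds antioxidant response elements in its target genes. In liver, these targets are known for glutathione synthesis, reduction of oxidized thiols, NADPH supply, heme breakdown and the conjugation of xenobiotics. Excess lipid in hepatocytes is known as a source of oxidative stress.

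The core letters of the antioxidant response element were looked up near the start sites of the 10 genes to show where the pathway could be read in the sequence. RefSeq promoters of the mouse build GRCm38.p6, from 250 bases before the start to 50 bases after it, were matched for 7 of the 10 genes. The motif TGACNNNGC was searched on both strands, and no other motif was searched. It was present for 5 of these 7 genes and for 1944 of 11566 genes past the count filter that have a promoter entry (16.8%). Counted by promoter, it was in 5 of 9 promoters of these genes and in 12.4% of all promoters of the table. The 5 matches are shown on the strand of the gene with the motif letters in capitals. The match in *Nfe2l2* reads on the gene's strand, and the other 4 matches read on the opposite strand. A match describes these letters only.

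Srxn1: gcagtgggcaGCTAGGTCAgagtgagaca
Txnrd1: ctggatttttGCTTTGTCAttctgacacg
Gclm: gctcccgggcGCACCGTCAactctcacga
G6pdx: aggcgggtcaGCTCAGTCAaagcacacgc
Nfe2l2: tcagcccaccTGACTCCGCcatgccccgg

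The *Srxn1* window lies on the plus strand at chr2:152105542-152105570, and its motif begins at base 29 of the transcript. The *Txnrd1* window is at chr10:82859104-82859132 on the plus strand, and the motif ends 83 bases before the start used by its most abundant transcript. The *Gclm* window is at chr3:122245413-122245441 on the plus strand, and the motif ends 125 bases before the start. The *G6pdx* window is at chrX:74428919-74428947 on the minus strand, with its motif 48 bases before the start. The *Nfe2l2* window is at chr2:75704885-75704913 on the minus strand, with its motif 231 bases before the start. *Keap1* and *Nqo1* had no match in this window.

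The libraries held 55466182 estimated counts with AAV-GFP and 48079335 with AAV-*Wee1-AS*. Ratios of AAV-*Wee1-AS* to AAV-GFP were taken after TMM scaling, with a prior count of 2. Each ratio has an exact (Clopper-Pearson) 95% interval, which covers counting error between the 2 libraries only. All 8 hepatocyte markers were detected, with summed levels of 75150 CPM with AAV-GFP and 93408 CPM with AAV-*Wee1-AS* (counts scaled to library size). Of the 8, 4 were higher and 4 lower with AAV-*Wee1-AS*, with a median log2 ratio of 0.02. This median came to 0.27 and 0.25 under the 2 removals of trends described below, with 3 and 2 of the 8 lower. *Alb* alone was at 44940 CPM and 65042 CPM. The 2 markers with the most counts in the AAV-GFP library were *Alb*, with 2542754 and 3065513 counts, and *Ttr*, with 536296 and 289753.

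Of the 10 genes, 3 were higher and 7 lower with AAV-*Wee1-AS*, and the ratios spanned 0.469 to 1.18. Of all 15857 genes past the filter, 7847 were higher and 8010 lower. Of the 3 that were higher, *Nfe2l2* and *Txnrd1* turned lower under scaling by the upper quartile, which moved the median log2 ratio of all genes to -0.22, and each of the 3 turned lower under at least 1 removal of the trends described below. For *Gclm* this was only the removal at its longest GENCODE transcript, not the one at the transcript with most of its counts. The median log2 ratio of the 10 genes was -0.26, and that of all genes past the filter was -0.02. *Srxn1* alone was past 2-fold, on the lower side. Across all genes past the filter, 31.0% were past 2-fold, 8.71% below a ratio of 0.5 and 22.2% above 2. The 1 gene of 10 on the lower side is thus close to the share over all genes. The counting interval lay wholly below a ratio of 1 for 6 of the 10 genes, against 38.0% of all genes, and wholly above it for 3, against 39.1%.

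**Figure D1:**
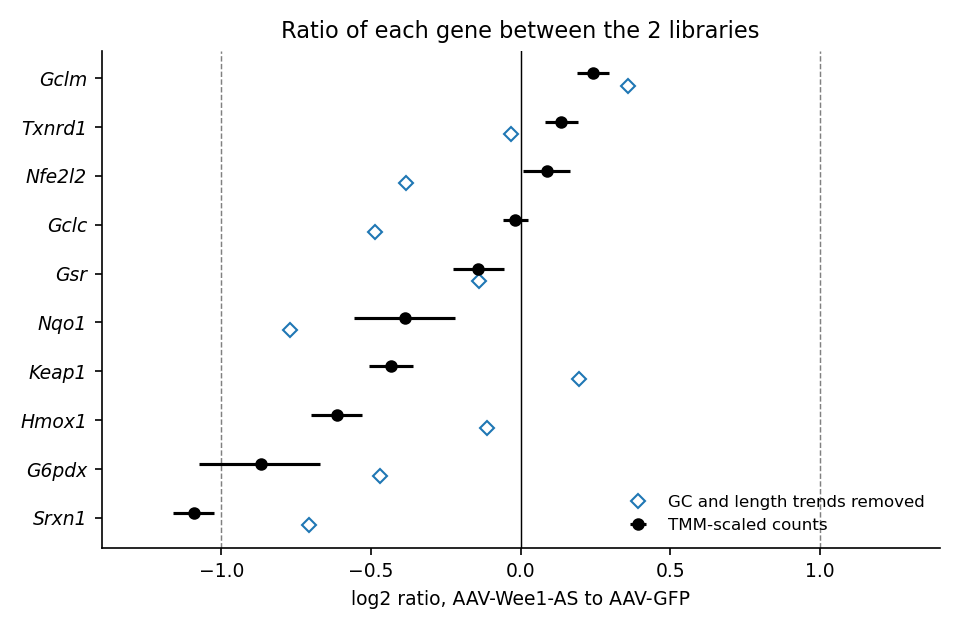
Ratio (log2, AAV-*Wee1-AS* over AAV-GFP) of each gene, with 1 library per group. Filled circles are TMM-scaled counts with 95% counting intervals, open diamonds are the ratios with the trends along GC content and length removed, and dashed lines mark 2-fold. *Srxn1* (-1.09) lies past the lower line and *Gclm* (0.24) is the highest.

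The regulators were examined first. *Nfe2l2* (chromosome 2, 75675513 to 75704663, minus strand) had 2855 counts with AAV-GFP and 2525 with AAV-*Wee1-AS*. Its ratio was 1.06 (1.01 to 1.12), near the limit of counting error, and its log2 ratio of 0.09 turned to -0.12 under the upper quartile and to -0.25 and -0.38 under the removals of the trends. *Keap1* (chromosome 9, 21229730 to 21239332, minus strand) had 4068 counts and 2510, a ratio of 0.741 (0.705 to 0.779), and its log2 ratio of -0.43 turned to 0.16 and 0.19 under the removals of the trends. Per length, *Nfe2l2* stood at 35.9 and 37.0 TPM (abundance per transcript length, with the same total in each library) and *Keap1* at 34.7 and 25.7 TPM. In TPM as deposited, *Nfe2l2* relative to *Keap1* was 1.04 with AAV-GFP and 1.44 with AAV-*Wee1-AS*. Since both genes turned direction when the trends were removed, the direction of this relative level turned too.

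The 4 RefSeq transcripts of *Keap1* share the same span, so the counts of each are estimates shared out between them. The 3151-base transcript had 1983 counts with AAV-GFP and 1167 with AAV-*Wee1-AS*. The 4470-base transcript had 1394 and 641, a log2 ratio of -0.86 (-0.99 to -0.72). The 3434-base transcript had 594 and 647, a log2 ratio of 0.39 (0.22 to 0.55), and its share of the *Keap1* TPM was 15.1% and 26.2%. The 3319-base transcript had 97 and 55. The lower ratio of *Keap1* was therefore not common to its 4 transcripts. The non-coding *Nfe2l2* transcript of 1621 bases had 183 and 101 counts, and its share of the TPM was 9.54% and 6.01%.

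**Figure D2:**
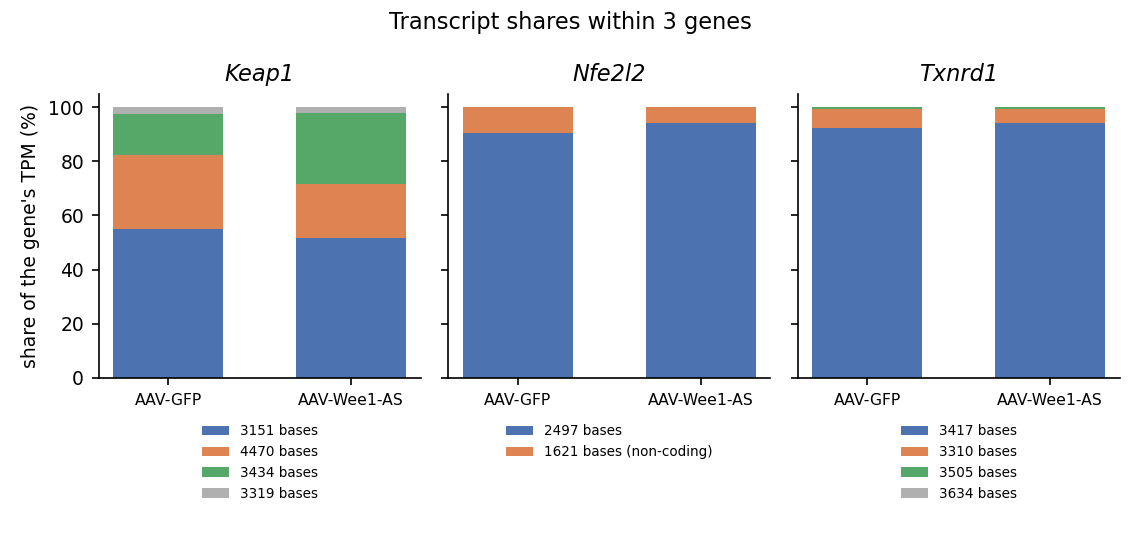
Share of the TPM of *Keap1*, *Nfe2l2* and *Txnrd1* (%) held by each RefSeq transcript, named by its length, in the 2 libraries. The 3434-base transcript of *Keap1* held 15.1% with AAV-GFP and 26.2% with AAV-*Wee1-AS*, while 1 transcript held over 90% of *Nfe2l2* and of *Txnrd1* in both libraries.

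Glutathione is made by glutamate-cysteine ligase, whose catalytic subunit is encoded by *Gclc* and whose modifier subunit is encoded by *Gclm*. *Gclc* (chromosome 9, 77754535 to 77794489, plus strand) had 10486 counts with AAV-GFP and 8629 with AAV-*Wee1-AS*. Its ratio was 0.988 (0.960 to 1.02), an interval that spans 1 under TMM scaling. Its log2 ratio of -0.02 came to -0.22 under the upper quartile and to -0.34 and -0.49 under the removals of the trends, which lie outside its counting interval. *Gclm* (chromosome 3, 122245487 to 122267215, plus strand) had 5762 counts and 5675, a ratio of 1.18 (1.14 to 1.23), the highest of the 10 genes, and its log2 ratio of 0.24 turned to -1.18 under 1 of the 2 removals of the trends. Under the other, at the length of the transcript with 99.6% and 99.9% of its counts, it was 0.36. The summed counts of the pair were 16248 and 14304, a ratio of 1.06. In TPM, *Gclc* relative to *Gclm* was 1.09 with AAV-GFP and 0.918 with AAV-*Wee1-AS*, and this direction turned with the trends of the longest transcript removed, where *Gclc* was at -0.34 and *Gclm* at -1.18. It held under the other removal, where *Gclc* was at -0.49 and *Gclm* at 0.36. A 869-base *Gclm* transcript had 23 and 6 of these counts. The pseudogene *Gm6061*, which lies within the span of *Gclm*, had 501 and 360 counts. A non-coding *Gclc* transcript of 3631 bases had 13 and 51 counts, a log2 ratio of 2.06 (1.34 to 3.24), and held 0.591% of the gene's counts with AAV-*Wee1-AS*.

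*Gsr* encodes glutathione reductase, which returns oxidized glutathione to its reduced form with NADPH. *Gsr* (chromosome 8, 33653238 to 33698162, plus strand) had 2574 counts with AAV-GFP and 1944 with AAV-*Wee1-AS*, a ratio of 0.907 (0.854 to 0.962). *Txnrd1*, the cytosolic thioredoxin reductase (chromosome 10, 82833951 to 82897724, plus strand), had 5592 and 5120 counts, a ratio of 1.10 (1.06 to 1.14). Its log2 ratio of 0.14 turned to -0.07 under the upper quartile and to -0.03 under 1 of the 2 removals of the trends. Its main transcript of 3417 bases had 5169 and 4833 counts, the 3310-base transcript 371 and 245, and the 3505-base transcript 43 and 40. The non-coding *Gm38560*, which overlaps the span of *Txnrd1*, had 15 and 28 counts. *Gsr* and *Txnrd1* thus lay on opposite sides of a ratio of 1 under TMM scaling, at 0.907 and 1.10. Both were lower under the upper quartile, where the log2 ratio of *Gsr* was -0.35. *Gsr* came to -0.02 and -0.14 under the removals of the trends, and *Txnrd1* was also lower under the second of these.

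The mitochondrial paralog *Txnrd2* had 2423 and 1438 counts, a ratio of 0.713 (0.667 to 0.761), and its log2 ratio of -0.49 turned to 0.10 and 0.13 under the removals of the trends. *Txnrd3* had 437 and 386, a ratio of 1.06 (0.922 to 1.22).

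*Srxn1* encodes sulfiredoxin, which repairs overoxidized peroxiredoxins. *Srxn1* (chromosome 2, 152105524 to 152111376, plus strand) had 6382 counts with AAV-GFP and 2493 with AAV-*Wee1-AS*. Its ratio of 0.469 (0.448 to 0.491) was the lowest of the 10, and the whole counting interval lay below 0.5. Its level was 68.9 TPM with AAV-GFP and 31.8 TPM with AAV-*Wee1-AS*. It kept a log2 ratio below -1 under each alternative except the removals of the GC trend, where it was -0.62 and -0.71.

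*Nqo1* encodes a quinone reductase that is widely used as a readout of NRF2 activity. *Nqo1* (chromosome 8, 107388225 to 107403205, minus strand) had 751 counts and 478, a ratio of 0.765 (0.680 to 0.858). *G6pdx* encodes glucose-6-phosphate dehydrogenase, the first enzyme of the pentose phosphate pathway and a source of NADPH. *G6pdx* (chromosome X, 74409483 to 74428880, minus strand) had 639 counts and 291, a ratio of 0.548 (0.474 to 0.629). Its span lies wholly within that of *Ikbkg*, a regulatory subunit of the IκB kinase complex, which had 2176 and 2069 counts. The library kit marks strand, but whether reads were counted by strand is not stated, so whether reads of this pair were shared is unknown. The retrogene copy *G6pd2* had 2 counts and 0, and the paralog *H6pd* of the endoplasmic reticulum had 34745 and 22280, a ratio of 0.770 (0.757 to 0.783) whose log2 value of -0.38 came to 0.03 and -0.08 under the removals of the trends.

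*Hmox1* encodes the inducible heme oxygenase and is expressed in liver macrophages as well as in hepatocytes. *Hmox1* (chromosome 8, 75093618 to 75100593, plus strand) had 3115 counts with AAV-GFP and 1695 with AAV-*Wee1-AS*, a ratio of 0.653 (0.615 to 0.693). Its log2 ratio of -0.61 came to -0.09 and -0.11 under the removals of the trends. The constitutive paralog *Hmox2* had 2380 and 1511, a ratio of 0.762 (0.714 to 0.813). Markers of macrophages and Kupffer cells were in part higher and in part lower beside this result. Of 10 markers, none was at 0, 6 were higher and 4 lower, and their summed level was 618 CPM with AAV-GFP and 522 CPM with AAV-*Wee1-AS*. *Cd5l* had 13953 and 6876 counts, and *Clec4f* had 7220 and 5418. In contrast to these, 4 of the 10 markers were above 2 (22.2% of all genes) and none below 0.5. Among the 4 were *Cd163* with 231 and 1254 counts and *Marco* with 162 and 414. With the trends of the main transcript removed, 2 of the 10 were above 2, against 6.63% of all genes. The 6 erythroid markers past the count filter were all lower, with a summed level of 1294 CPM and 732 CPM and a median log2 ratio of -0.88. This median came to -0.09 and -0.0036 under the removals of the trends, with 4 and 3 of the 6 lower. Of 7 stellate cell markers, 3 were below 0.5 (8.71% of all genes) and 1 was above 2, with a summed level of 408 CPM and 265 CPM. Their median log2 ratio was -0.59, and it came to -0.89 and -0.92 under the removals of the trends, with 5 and 7 of the 7 lower. The 3 neutrophil markers past the filter were lower, at a summed level of 3.99 CPM and 1.97 CPM for the whole list, of which *Ly6g* was at 0 in both libraries, and their median of -1.31 came to -1.64 and -1.65 under the removals. The part of these cells in the results for *Hmox1* and the other genes was not tested, and fewer cells of a type cannot be told apart from less RNA per cell in whole liver.

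**Figure D3:**
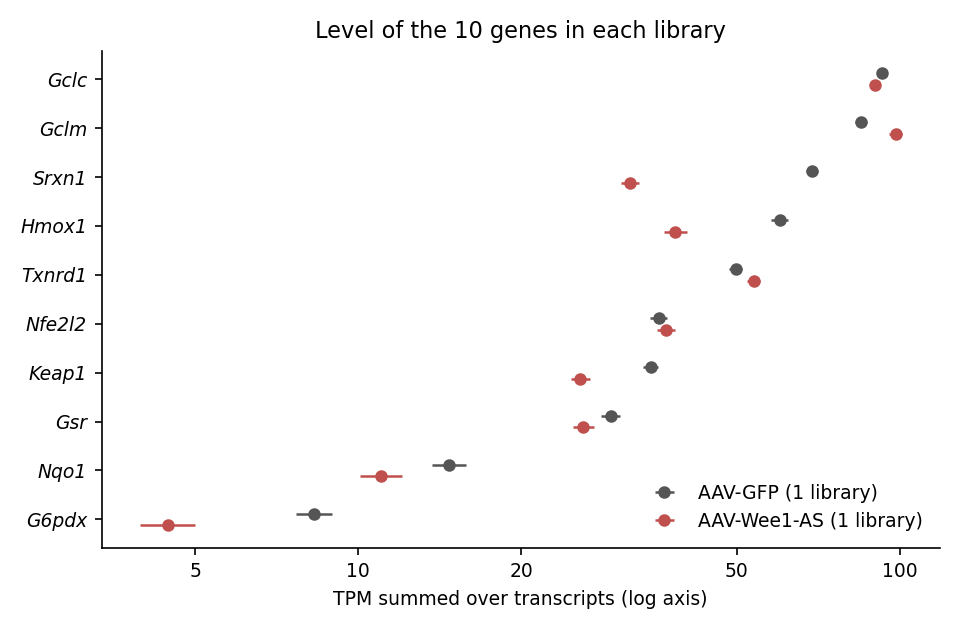
Level of each gene in TPM (log axis) in the AAV-GFP and AAV-*Wee1-AS* libraries, with exact 95% Poisson intervals of the count. *Srxn1* is at 68.9 and 31.8 TPM, the widest distance among the 10 genes, and *Gclc* at 92.9 and 90.2 TPM.

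Ordered by TPM in the AAV-GFP library, *Gclc* (92.9 TPM) was the highest, followed by *Gclm* (84.9), *Srxn1* (68.9), *Hmox1* (60.0), *Txnrd1* (49.8), *Nfe2l2* (35.9), *Keap1* (34.7), *Gsr* (29.2), *Nqo1* (14.7) and *G6pdx* (8.29). The counting intervals of neighbours overlapped only for *Nfe2l2* and *Keap1*. In the AAV-*Wee1-AS* library, *Gclm* (98.2 TPM) came before *Gclc* (90.2), and *Srxn1* moved from place 3 to place 6 of the 10. There, the intervals of *Hmox1* (38.5 TPM) and *Nfe2l2* (37.0) overlapped, as did those of *Gsr* (26.1) and *Keap1* (25.7). The spread between mice that would set these orders is unknown.

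The ratio between the libraries followed base composition across all genes, with a Spearman coefficient of -0.69 against GC content over 15109 genes. GC content was taken at the length of the most abundant deposited transcript. Over the 10 genes the coefficient was -0.58. Genes share the 2 libraries and are not replicates. When all genes were ordered by GC content into 10 groups of equal size, the median log2 ratio went from 1.49 in the lowest group to -0.69 in the highest. *Nqo1* (46.7% GC) was at -0.39 in a group with a median of 0.73, where 9.73% of genes had a ratio as low. *Srxn1* (53.3% GC) and *G6pdx* (53.0%) were in a group with a median of -0.37, of which 10.3% and 15.2% of genes were as low. *Hmox1* was in the same group, at percentile 29.1. *Keap1* (59.0% GC) was in the group with the highest GC content, whose median was -0.69, at percentile 75.8. What produced the trend was not tested, and with 1 library per group it cannot be told apart from the treatment.

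**Figure D4:**
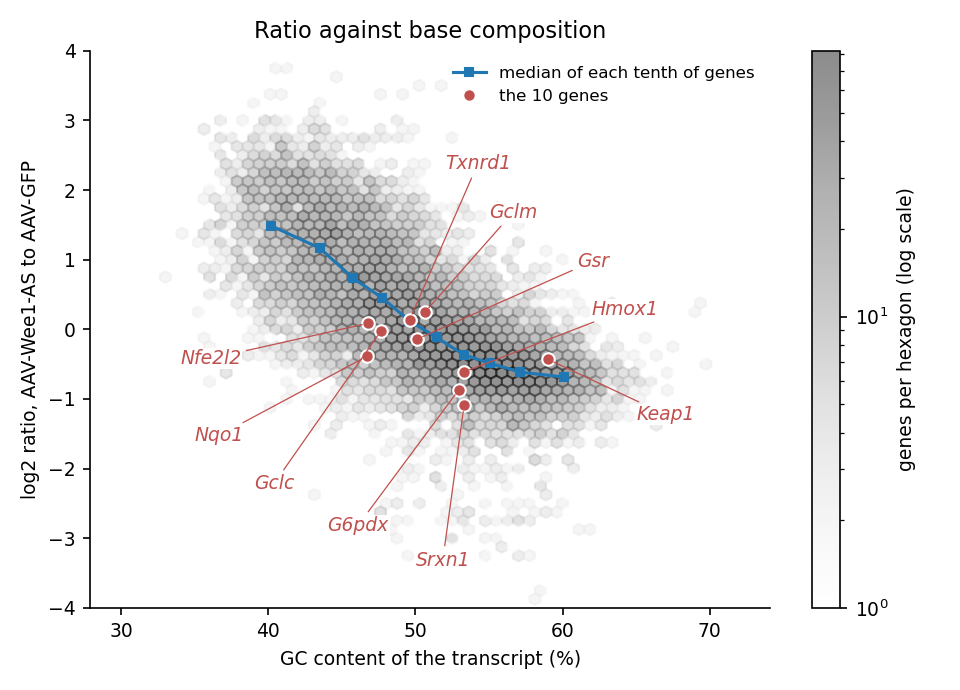
Ratio (log2, AAV-*Wee1-AS* over AAV-GFP) against GC content of the transcript (%) for 15109 genes (grey hexagons, darker for more genes), with the 10 genes in red and the medians of 10 groups ordered by GC content in blue. *Nqo1*, *Srxn1*, *G6pdx*, *Gclc*, *Hmox1*, *Nfe2l2* and *Gsr* are below the median of their group. *Keap1* and *Gclm* are above it, and *Txnrd1* is near it. Genes beyond a log2 ratio of 4 in either direction are not drawn.

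The trends along GC content and length were then removed, at the length of the most abundant deposited transcript, an alternative added once the values were known. After this, 8 of the 10 genes had a log2 ratio below 0, against 7610 of 15109 genes. None of the 10 was past 2-fold, against 2180 of the 15109. The lowest of the 10 was then *Nqo1* at -0.77, followed by *Srxn1* at -0.71, *Gclc* at -0.49, *G6pdx* at -0.47 and *Nfe2l2* at -0.38. *Keap1* turned to 0.19, and *Hmox1* came to -0.11. *Gclm* was at 0.36 with the deposited transcript of 2072 bases, which held 99.6% of its counts with AAV-GFP and 99.9% with AAV-*Wee1-AS*. It was at -1.18 with the longest GENCODE transcript of 5589 bases, whose GC content was 42.1% against 50.6%. Its direction thus turned only where a transcript other than the one with most of its counts was assumed. The order of the 10 genes was therefore not the same with and without the trend.

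The other genes of the pathway were described with 7 lists. Names follow a rule, the 2 highest and the 2 lowest ratios of each list among genes with at least 100 counts, and other names were chosen after their values were seen. Of 17 genes that control NRF2 and passed the filter, 3 were above 2-fold and 1 was below 0.5, with a median log2 ratio of -0.06. For this and the following lists, the shares over all genes are 22.2% above 2 and 8.71% below 0.5, and the counts of NRF2 control genes are near or under them. With the trends removed at the length of the main transcript, to which all further values with the trends removed refer, these shares are 6.63% and 7.80% of 15109 genes, and 1 of the 17 was above 2 and 1 below 0.5. The gene then below 0.5 was *Btrc*, at -1.84, whose log2 ratio before the removal was -0.06 (-0.20 to 0.07). *Bach1*, a repressor that competes with NRF2 for its binding sites, had 318 counts with AAV-GFP and 1271 with AAV-*Wee1-AS*. Its log2 ratio was 2.25 (2.08 to 2.44), and it was 1.35 with the trends removed. *Cul3*, the scaffold of the ligase that KEAP1 serves, had 697 and 1994 counts, a log2 ratio of 1.78 (1.65 to 1.91) that became 0.12 with the trends removed. Of the small MAF partners, *Maff* had 937 and 255 counts, a log2 ratio of -1.61 (-1.82 to -1.41), and *Mafk* had 1289 and 594, a ratio of 0.554 (0.501 to 0.610). Their log2 ratios came to -0.90 and -0.33 with the trends removed, so that *Maff* was no longer past 2-fold.

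The list of detoxification enzymes and transporters known as NRF2 targets had the lowest median. Of 26 listed, 25 passed the filter, 19 were lower and 6 higher, and the median log2 ratio was -0.63. A ratio below 0.5 was found for 10 of the 25 (40.0%, against 8.71% of all genes), and none was above 2. *Cbr3*, a carbonyl reductase, had 739 counts with AAV-GFP and 35 with AAV-*Wee1-AS*, a log2 ratio of -4.07 (-4.67 to -3.65). *Gsta1*, a glutathione S-transferase, had 2185 and 249, one of -2.86 (-3.06 to -2.68). *Abcc2*, a canalicular exporter of glutathione conjugates, had 14277 and 21283, one of 0.84 (0.81 to 0.87). *Aox1*, an aldehyde oxidase, had 5675 and 5571, one of 0.24 (0.18 to 0.29). The log2 ratio of *Abcc2* came to 0.06 with the trends removed, and that of *Aox1* turned to -0.08.

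Of the 10 genes below 0.5, 7 were glutathione S-transferases, and the others were *Cbr3*, *Cbr1* and the epoxide hydrolase *Ephx1*. Paralogs of these transferases can share reads, so their counts were also summed. *Gsta1* and *Gsta2* together had 4080 counts with AAV-GFP and 727 with AAV-*Wee1-AS*, a ratio of 0.214. *Gstm1*, *Gstm2*, *Gstm3*, *Gstm4* and *Gstm6* together had 202679 and 67216, a ratio of 0.398. *Gsta1*, *Gsta2* and *Gsta3* together had 85084 and 66345, a ratio of 0.936, and *Gsta3* had 81004 and 65618 of these counts. The sum that includes *Gsta3* was thus not below 0.5, whereas *Gsta4* was on its own, with 4198 and 1469 counts and a ratio of 0.420. The *Gstm* sum includes *Gstm6*, whose own ratio was 0.690. With the trends removed, the list had a median of -0.67, with 7 of 25 genes below 0.5, against 7.80% of all genes. Of the 10 genes, 5 remained below 0.5, which were *Cbr3*, *Gsta1*, *Gsta2*, *Gsta4* and *Gstm3*. *Gstm1*, with most of the counts of its group, came to a log2 ratio of -0.79, and *Ugt1a6a* (-1.26) and *Abcc4* (-1.09) were below 0.5 only with the trends removed.

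**Figure D5:**
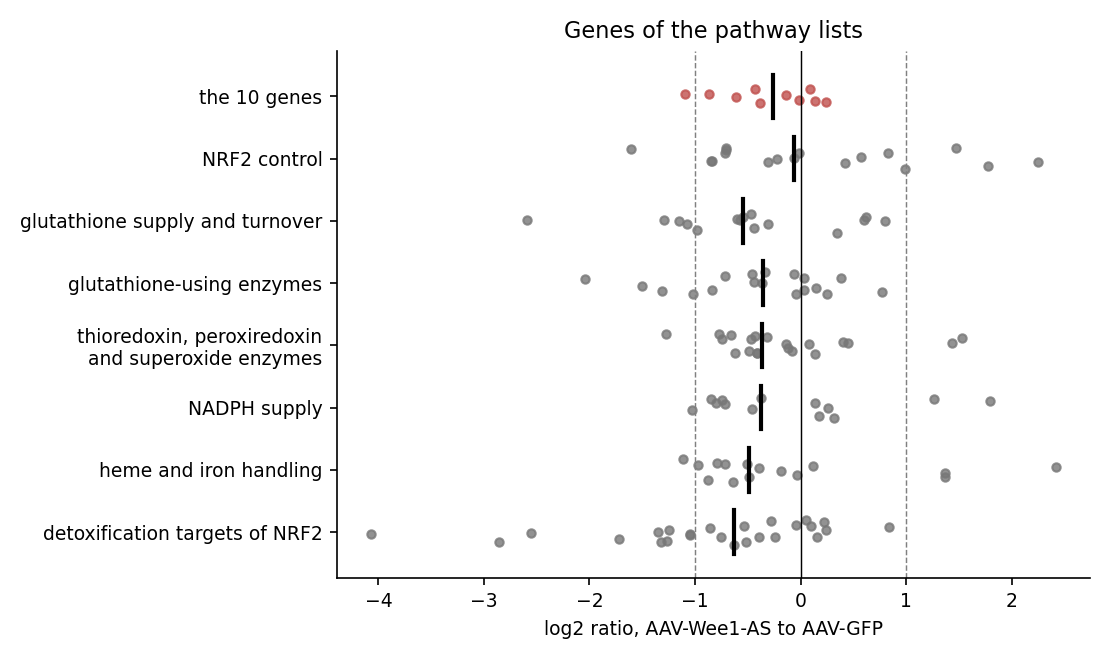
Ratio (log2, AAV-*Wee1-AS* over AAV-GFP) for the 10 genes (red) and for the genes of 7 pathway lists past the count filter (grey), with the median of each list as a black bar and dashed lines at 2-fold. Among the 7 lists as drawn, the detoxification targets of NRF2 have the lowest median (-0.63) and the NRF2 control genes the highest (-0.06). With the trends of the main transcript removed, NRF2 control was no longer the highest, at -0.24 against -0.035 for heme and iron handling.

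Of 15 genes that supply or turn over glutathione, 4 were below 0.5 (8.71% of all genes) and none above 2 (22.2%), with a median of -0.55. Of the 4, *Ggt1* had 11 counts and 0, and *Ggt7* had 24 and 8. With the trends removed, 2 of the 15 were below 0.5, *Ggt1* (-2.01) and *Ggt5* (-1.34), and the median was -0.10. *Ggt1* passed the count filter through the AAV-GFP library only. *Gss*, glutathione synthetase, which completes the tripeptide, had 8466 counts with AAV-GFP and 3334 with AAV-*Wee1-AS*, a log2 ratio of -1.08 (-1.14 to -1.02) that became -0.49 with the trends removed. *Ggt5*, a γ-glutamyl transferase, had 289 and 97, a ratio of 0.407 (0.317 to 0.509). *Chac2*, which degrades glutathione, had 409 and 595, a log2 ratio of 0.80 (0.62 to 0.99). *Cth*, which makes cysteine from cystathionine, had 6400 and 8197, one of 0.62 (0.57 to 0.67). Both turned with the trends removed, *Chac2* to -0.42 and *Cth* to -0.10. *Slc7a11*, the cystine transporter and a known NRF2 target, had no count in either library.

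Among 18 enzymes that use glutathione, 4 were below 0.5 (8.71% of all genes), none was above 2 (22.2%) and the median was -0.35. With the trends removed, 2 of the 18 were below 0.5. *Mgst3*, a microsomal transferase, had 3158 and 637 counts, a log2 ratio of -2.04 (-2.17 to -1.92). *Gpx4*, which reduces lipid hydroperoxides, had 41780 and 12265, one of -1.50 (-1.53 to -1.48). *Glrx2*, a mitochondrial glutaredoxin, had 533 and 758, one of 0.77 (0.61 to 0.93). *Glo1*, a glyoxalase, had 14263 and 15534, one of 0.39 (0.35 to 0.42). Removal of the trends brought *Gpx4* to -0.72 and *Mgst3* to -1.82, while *Glrx2* turned to -0.30 and *Glo1* to -0.09.

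Of 20 thioredoxin, peroxiredoxin and superoxide enzymes, 2 were above 2 (22.2% of all genes) and 1 below 0.5 (8.71%), with a median of -0.36 that came to -0.22 and -0.037 under the removals of the trends. With the trends removed, 1 was above 2 and none below 0.5. The sestrin *Sesn3* had 120 and 293 counts, a log2 ratio of 1.53 (1.24 to 1.87), and *Sesn1* had 246 and 556, one of 1.43 (1.22 to 1.66) that was 1.82 with the trends removed. *Sesn2* had 758 and 370, one of -0.77 (-0.95 to -0.59). *Sod3*, the extracellular superoxide dismutase, had 6238 and 2151, one of -1.27 (-1.34 to -1.20). Removal of the trends brought *Sesn3* to 0.59, *Sod3* to -0.60 and *Sesn2* to -0.05.

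Of 13 genes of NADPH supply, 2 were above 2 (22.2% of all genes) and 1 below 0.5 (8.71%), with a median of -0.38 that came to -0.0022 and -0.076 under the removals of the trends. None of the 13 was past 2-fold in either direction with the trends removed. *Pgd*, the dehydrogenase that follows *G6pdx* in the pentose phosphate pathway, had 7105 and 3291 counts, a log2 ratio of -0.85 (-0.91 to -0.79) that was -0.83 with the trends removed. *Rpe*, of the same pathway, had 240 and 698, one of 1.79 (1.59 to 2.02). The isocitrate dehydrogenases had ratios on opposite sides. The cytosolic *Idh1* had 9496 and 19023 counts, a log2 ratio of 1.27 (1.23 to 1.30), and the mitochondrial *Idh2* had 10901 and 4440, one of -1.03 (-1.08 to -0.98). Removal of the trends brought *Rpe* to 0.47, *Idh1* to 0.26 and *Idh2* to -0.37.

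Of 15 genes of heme and iron handling, 3 were above 2 (22.2% of all genes) and 1 below 0.5 (8.71%), with a median of -0.49 that came to -0.22 and -0.035 under the removals of the trends. *Alas1*, which catalyses the first step of heme synthesis, had 61181 and 23535 counts, a log2 ratio of -1.11 (-1.14 to -1.09). *Ftl1*, the ferritin light chain, had 423185 and 179283, one of -0.98 (-0.98 to -0.97). *Tfrc*, the transferrin receptor, had 193 and 866, one of 2.42 (2.20 to 2.66), and *Slc40a1*, the iron exporter, had 2756 and 5935, one of 1.37 (1.30 to 1.44). These 4 ratios came to -0.74, -0.17, 0.78 and 0.22 with the trends removed, and none of the 15 genes was then past 2-fold.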

How the data were processed

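The deposited table holds, per RefSeq transcript of mm10 and per library, an estimated count, an FPKM value and a TPM value. The submitters' processing notes name Trimmomatic 0.38, HISAT2 2.1.0, SAMtools 1.9 and StringTie 2.1.3b. The deposited estimated counts are whole numbers and not normalized, and the deposited FPKM and TPM values are scaled by length and library.

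Counts were summed per symbol and scaled by TMM (edgeR 4.0.16, R 4.3.3), with factors of 1.02 and 0.980. The fold limit was 2. No fold is reported for genes with no more than 3 counts in both libraries, but the alternative without the count filter included such genes. GC content came from GENCODE M21 transcripts, and trends with GC content and length were removed by lowess (span 0.3, 5 cycles; statsmodels 0.14.6). Genes of lists were matched by symbol or synonym (*Skp1* as *Skp1a*).

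The members and lists were chosen with earlier results of these data known. The rule for named genes took all 10 members, the paralogs *Txnrd2*, *Txnrd3*, *Hmox2*, *G6pd2* and *H6pd*, members' transcripts, the 2 highest and 2 lowest ratios of each list, and the 2 macrophage and 2 hepatocyte markers with the most counts in the AAV-GFP library. Other names, such as overlapping genes and summed transferases, were picked with their values in view. The steps were tested on simulated data. Alternatives were other scalings, filters, prior counts, units, transcripts and trend removals.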

Additional observations from a re-analysis of the deposited data

How the results depend on the processing

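No paired analysis was possible because the groups share 1 replicate number only, and no replicate could be left out with 1 library per group. Directions were the same under all 11 alternatives for *Nqo1*, *Hmox1*, *Gclc*, *Gsr*, *Srxn1* and *G6pdx*. Scaling by the upper quartile put 2 of the 10 genes past 2-fold (*Srxn1* and *G6pdx*), both lower. Of 15857 genes, this scaling put 5170 past 2-fold, 2232 of them lower. It moved the median log2 ratio of the 10 to -0.47. It moved that of NRF2 control to -0.27, glutathione supply to -0.76, glutathione-using enzymes to -0.56, thioredoxin enzymes to -0.57, NADPH supply to -0.58, heme and iron to -0.69, detoxification to -0.84 and all genes to -0.22. Removing trends along GC content and length of the longest GENCODE transcript left 2406 genes past 2-fold in place of 4908, with medians of -0.22 for NRF2 control, -0.13 for glutathione supply, -0.22 for thioredoxin enzymes, -0.0022 for NADPH supply, -0.22 for heme and iron and -0.74 for detoxification. Using the length of the main deposited transcript, added after seeing the data, left 2180 genes and 0 of the 10 past 2-fold, with medians of -0.24, -0.10, -0.037, -0.076 and -0.035 for the first 5 of these lists. TPM left 2046 genes past 2-fold and FPKM 1336, both with a pseudocount of 1. The most abundant transcript alone gave a median of -0.27 for NADPH supply. Depth limits genes with few counts, such as *G6pd2* and *Slc7a11*, and counting intervals hold no spread between mice.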
